A study of Saccharomyces cerevisiae with 22 samples.

Results

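The VTC complex makes polyphosphate, and the polyphosphatases cut it. The genes described here are VTC1 to VTC5 and the vacuolar polyphosphatase genes PPN1 and PPN2 of Saccharomyces cerevisiae, 7 genes chosen by their systematic names. Of these, 6 had at least 1 cluster of transcription start sites in the data, out of 3872 genes with a cluster. Their 7 clusters belong to a set of 5195. VTC5 (YDR089W, chromosome IV, 622112 to 624721, plus strand), whose product stimulates the complex, had no cluster in any of the 7 tables and is not described further.

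Start sites were mapped by TL-seq, which reads the 5′ ends of capped polyadenylated RNA, in yeast of the W303 background grown in YPD medium. The cultures were untreated or received 5 mM dithiothreitol (DTT), a reducing agent that unfolds proteins in the endoplasmic reticulum, and were collected 1 h later. All strains carry a deletion of SWI3 or SNF2 covered by an integrated copy marked with LEU2. The copy is wild type in the 2 control strains (SWI3::LEU2 in swi3Δ and SNF2::LEU2 in snf2Δ) and mutant in the others. The mutants are swi3-E815X, snf2-W935R and snf2-Q928K, called swi3E815X, snf2W935R and snf2Q928K below. Swi3 and Snf2 are the scaffold and the ATPase of Swi/Snf, a complex that slides and evicts nucleosomes at promoters. Each of the 10 combinations of genotype and treatment has 2 libraries, collected on separate days per the labels, and 2 further libraries made without the decapping enzyme enter no comparison.

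The deposited tables give comparisons and no values per library. The SD, the number of libraries showing a direction and the depth per library are therefore unknown, and each error on a fold change is the authors' standard error (SE). The mean level of each group was derived from the tables as a normalized count, on the scale of the wild-type table. The wild-type libraries behind the swi3E815X tables and behind the snf2 tables are different sets, inferred from the values, and both are given. The snf2 mutants share their wild-type libraries, so their comparisons are not independent. A cluster was called at a Benjamini-Hochberg adjusted p under 0.05 in the authors' DESeq2 test over all clusters of a table.

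Polyphosphate is a chain of phosphate units that yeast stores in the vacuole, where it buffers the supply of phosphate. Vtc4 holds the polymerase domain that builds the chain from ATP and passes it through the membrane. Vtc1 is a small membrane subunit, and Vtc2 and Vtc3 are alternative subunits with an SPX domain, which senses inositol pyrophosphates. Ppn1 and Ppn2 are vacuolar enzymes that cleave the chain, Ppn2 from within and Ppn1 from within and from the ends. Several VTC genes are known targets of Pho4, the transcription factor that turns on phosphate genes when phosphate is short and that binds the core CACGTG and, less tightly, CACGTT.

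The promoters that held a Pho4 motif are shown, so that genes that moved and those that did not can be set beside their motifs. That of PPN1, which held neither motif, is not shown. Whether a motif goes with a change was not tested. Each sequence is the 250 bases before the main start cluster, 5′ to 3′ on the strand of the gene, in the reference genome R64, the build named for the files. Capitals mark CACGTG and CACGTT, the latter on either strand, where it can read AACGTG.
VTC1, chrV:302445-302694, plus strand: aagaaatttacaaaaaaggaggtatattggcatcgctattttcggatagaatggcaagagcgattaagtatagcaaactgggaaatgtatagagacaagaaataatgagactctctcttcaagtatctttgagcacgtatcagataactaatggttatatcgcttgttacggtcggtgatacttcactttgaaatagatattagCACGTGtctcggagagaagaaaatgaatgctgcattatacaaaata
VTC2, chrVI:131401-131650, plus strand: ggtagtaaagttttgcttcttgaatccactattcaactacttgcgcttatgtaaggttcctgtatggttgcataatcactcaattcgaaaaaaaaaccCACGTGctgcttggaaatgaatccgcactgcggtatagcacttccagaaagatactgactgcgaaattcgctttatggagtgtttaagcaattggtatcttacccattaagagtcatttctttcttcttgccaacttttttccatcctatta
VTC3, chrXVI:517267-517516, minus strand: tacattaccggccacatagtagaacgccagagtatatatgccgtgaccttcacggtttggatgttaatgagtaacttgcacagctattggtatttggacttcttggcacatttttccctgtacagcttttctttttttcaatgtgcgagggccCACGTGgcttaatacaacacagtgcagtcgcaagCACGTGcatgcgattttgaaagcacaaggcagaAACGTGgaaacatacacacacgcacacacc
VTC4, chrX:413448-413697, minus strand: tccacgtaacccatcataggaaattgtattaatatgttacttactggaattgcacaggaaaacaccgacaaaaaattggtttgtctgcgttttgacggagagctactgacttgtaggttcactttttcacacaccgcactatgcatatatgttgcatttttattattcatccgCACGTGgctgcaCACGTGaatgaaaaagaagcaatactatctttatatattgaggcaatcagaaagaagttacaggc
PPN2, chrXIV:240043-240292, plus strand: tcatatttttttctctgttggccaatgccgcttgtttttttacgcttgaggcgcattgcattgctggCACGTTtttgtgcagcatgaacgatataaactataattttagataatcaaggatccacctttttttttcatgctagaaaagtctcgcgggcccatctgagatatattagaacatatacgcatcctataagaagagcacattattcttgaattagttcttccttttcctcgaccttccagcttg
CACGTG was found in the window of each of VTC1 to VTC4. It lay 40 bases before the start cluster of VTC1 and 146 bases before that of VTC2. VTC3 had copies at 91 and 57 bases and an AACGTG at 24 bases before its main cluster. VTC4 had copies at 71 and 59 bases, with a TTTATA, the reverse of TATAAA, at 30 bases. PPN2 held a CACGTT at 177 bases and a TATAAA at 153 bases, and PPN1 held neither Pho4 motif but a TTTATA at 192 bases. Over the main clusters of all genes, 3799 such windows, CACGTG occurred in 4.47%, CACGTT in 8.37% and TATAAA in 40.1%, all on both strands. CAGCGTG, the core of the unfolded protein response element, occurred in 1.4% of windows and in that of no member. None of these motifs overlap each other, and a match describes letters, not bound factor.

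Start clusters of the 6 genes differed in width and in their distance from the coding start. VTC1 (YER072W, chromosome V, 302806 to 303195, plus strand) had a cluster of 38 bp at 302695 to 302732, which ended 74 bp before the coding start. For VTC2 (YFL004W, chromosome VI, 131810 to 134296, plus strand) the cluster was 195 bp wide, at 131651 to 131845, and ran 35 bp into the coding region. The main cluster of VTC3 (YPL019C, chromosome XVI, 514511 to 517018, minus strand) covered 116 bp at 517151 to 517266, between 133 and 248 bp upstream of the coding start. A second VTC3 cluster of 15 bp lay at 517043 to 517057, 25 to 39 bp upstream. VTC4 (YJL012C, chromosome X, 411234 to 413399, minus strand) started at 413410 to 413447, from 11 to 48 bp upstream. PPN1 (YDR452W, chromosome IV, 1362878 to 1364902, plus strand) started at 1362711 to 1362749, from 129 to 167 bp upstream. PPN2 (YNL217W, chromosome XIV, 240331 to 241311, plus strand) had the narrowest main cluster of the 6 genes, 13 bp at 240293 to 240305, from 26 to 38 bp upstream.

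In wild-type cells DTT lowered VTC4, raised PPN1 and left no other main cluster of the 6 genes called. This comparison asks how the genes respond to stress in the endoplasmic reticulum when Swi/Snf is intact. Across all clusters, 16.5% were called higher and 17.3% lower, so 1 higher and 1 lower of 6 stood close to the background. The median log2 fold change of the 6 was -0.16, beside 0.01 for all clusters tested.

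VTC4 had derived levels of 222 normalized counts untreated and 79.6 with DTT in the wild-type libraries of the swi3E815X tables. In those of the snf2 tables it went from 235 to 125. Both wild-type sets were lower with DTT. The authors' deposited table gives a log2 fold change of -1.16 ± 0.36 (adjusted p = 0.005, DESeq2). PPN1 went from 624 to 983 and from 627 to 1067 in the same sets, and the authors' deposited table has it higher by 0.71 ± 0.22 (adjusted p = 0.00636, DESeq2).

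PPN2 (log2 fold change 0.45 ± 0.22), VTC3 (-0.51 ± 0.23), VTC2 (-0.42 ± 0.27) and VTC1 (0.09 ± 0.24) were not called in the authors' deposited table. For VTC3 the wild-type sets differed in size: 8927 to 5192 normalized counts in the libraries of the swi3E815X tables, and 9922 to 7987 in those of the snf2 tables. With DTT the VTC3 and VTC4 levels of the snf2 set were 1.54 and 1.57 times those of the swi3E815X set. Whether a difference between wild-type sets bears on a mutant's effect was not tested.

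**Figure D1:**
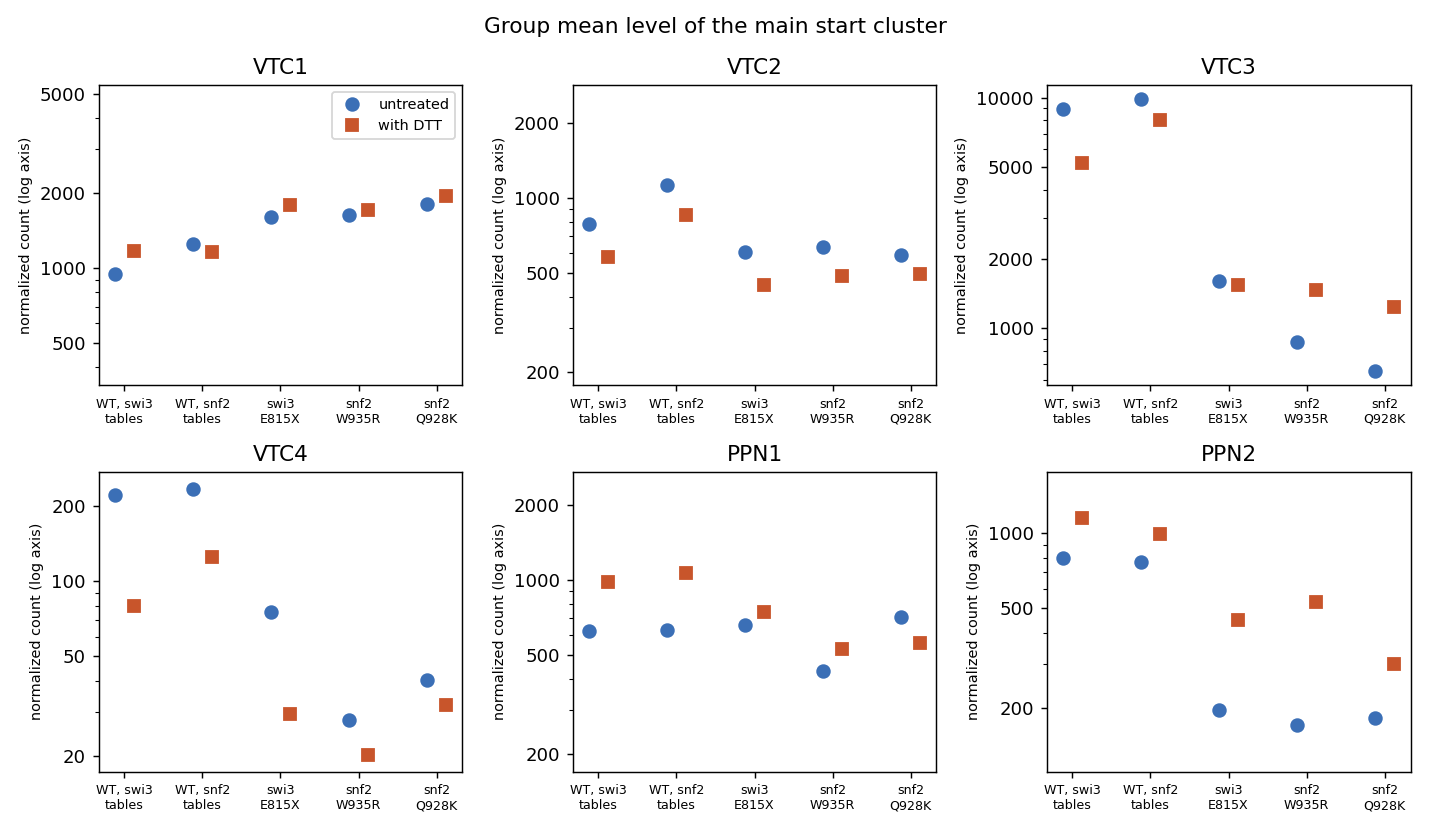
Derived mean normalized count of the main start cluster (log axis, a separate scale in each panel) in the 10 groups, untreated (circles) and with DTT (squares). Each point is a group of 2 libraries and has no error bar because no values per library were used. VTC3 is at 8927 and 9922 in the untreated wild-type sets and at 1603, 874 and 651 in the mutants, while VTC1 is above both wild-type sets in every mutant.

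VTC3 was lower in all 3 mutants under both treatments, and this was the largest decrease among the 6 genes except in snf2W935R with DTT, where VTC4 was at the larger fold change. These comparisons ask what each Swi/Snf mutation does to the genes without and with stress. Untreated, its derived level was 1603 normalized counts in swi3E815X, 874 in snf2W935R and 651 in snf2Q928K, against 8927 and 9922 in the wild-type sets. With DTT it was 1548, 1463 and 1238, against 5192 and 7987. No mutant group reached the wild-type range under either treatment.

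For untreated VTC3 the authors' deposited tables give log2 fold changes of -2.48 ± 0.27 in swi3E815X (adjusted p = 1.86e-16), -3.50 ± 0.29 in snf2W935R (1.15e-29) and -3.93 ± 0.28 in snf2Q928K (1.49e-41, all DESeq2). These are decreases of 5.57, 11.4 and 15.2 times, from the authors' deposited tables. With DTT the authors' deposited tables give -1.75 ± 0.26 (adjusted p = 7.53e-09), -2.45 ± 0.31 (9.96e-13) and -2.69 ± 0.23 (6.62e-30) in the same order.

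The snf2Q928K effect on VTC3 was smaller with DTT than without it, by a log2 difference of 1.24 (95% interval 0.53 to 1.94, adjusted p = 0.0453, Benjamini-Hochberg over all clusters). Such differences were tested two-sided from the deposited fold changes and SEs, and 1.41% of all clusters passed in snf2Q928K. The VTC3 call was lost when fold changes were centred on each table's median (adjusted p = 0.0565). In swi3E815X (0.73, adjusted p = 0.999) and snf2W935R (1.06, adjusted p = 0.296) the same difference did not pass, with 0.0386% and 0.869% of clusters passing. The mutants' own DTT responses of VTC3, read from derived levels, were 0.97-fold in swi3E815X, 1.67-fold in snf2W935R and 1.9-fold in snf2Q928K. In the wild-type sets they were 0.582-fold and 0.805-fold.

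The order of VTC3 levels among untreated mutants was swi3E815X, snf2W935R, snf2Q928K from high to low. The swi3E815X effect was smaller than that of snf2Q928K by a log2 difference of 1.45 (95% interval 0.69 to 2.22, adjusted p = 0.0261), where 0.87% of clusters passed. It also holds the difference between wild-type sets, which for untreated VTC3 was 1.11-fold. Between swi3E815X and snf2W935R (1.03, interval 0.24 to 1.81, adjusted p = 0.549, Benjamini-Hochberg) the difference did not pass. Nor did that between snf2Q928K and snf2W935R (-0.42, interval -1.22 to 0.37, adjusted p of 1 after rounding). With DTT none of the 3 pairs of mutants passed for VTC3.

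The second VTC3 cluster, nearer to the coding start, went the other way. Its derived level was 0.2 and 1.5 normalized counts in the untreated wild-type sets, under the floor of 3 counts per library. In untreated swi3E815X it was 18.5, in snf2W935R 36.9 and in snf2Q928K 24.0. All 3 mutant groups were above the floor. Its level was 12.3 times the floor in snf2W935R, 8.01 times in snf2Q928K and 6.18 times in swi3E815X. These multiples leave out the error of the level and are not lower limits. In the authors' deposited tables it was called higher in snf2W935R, at a log2 fold change of 7.53 ± 2.01 (adjusted p = 0.0101, DESeq2). It was also called higher in snf2Q928K, at 6.92 ± 2.22 (adjusted p = 0.031, DESeq2). In swi3E815X it was at 3.63 ± 1.84 (interval 0.02 to 7.24) and not called (adjusted p = 0.515, DESeq2, in the authors' deposited table). These fold changes rest on wild-type levels under the floor, so their size is not resolved.

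DTT brought this VTC3 cluster to 10.045 and 18.9 normalized counts in the wild-type sets. Over all 4 libraries its level with DTT was 4.87 times the floor, a multiple that also leaves out the error of the level. The authors' deposited table has it higher by 4.46 ± 1.65 on the log2 scale (adjusted p = 0.0243, DESeq2). With DTT the mutants had 23.3, 41.4 and 52.7, and none was called against wild type. As a share of both VTC3 clusters, it was 1.14% in untreated swi3E815X, 4.05% in snf2W935R and 3.56% in snf2Q928K. In the untreated wild-type sets the share was 0.00201% and 0.0168%. These come from levels under the floor, so how many times the share differs is not resolved. With DTT the shares were 0.193% and 0.237% in wild type, 1.481% in swi3E815X, 2.76% in snf2W935R and 4.08% in snf2Q928K. The untreated sum of both clusters was 1621, 911 and 675 normalized counts in the mutants, against 8928 and 9922.

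**Figure D2:**
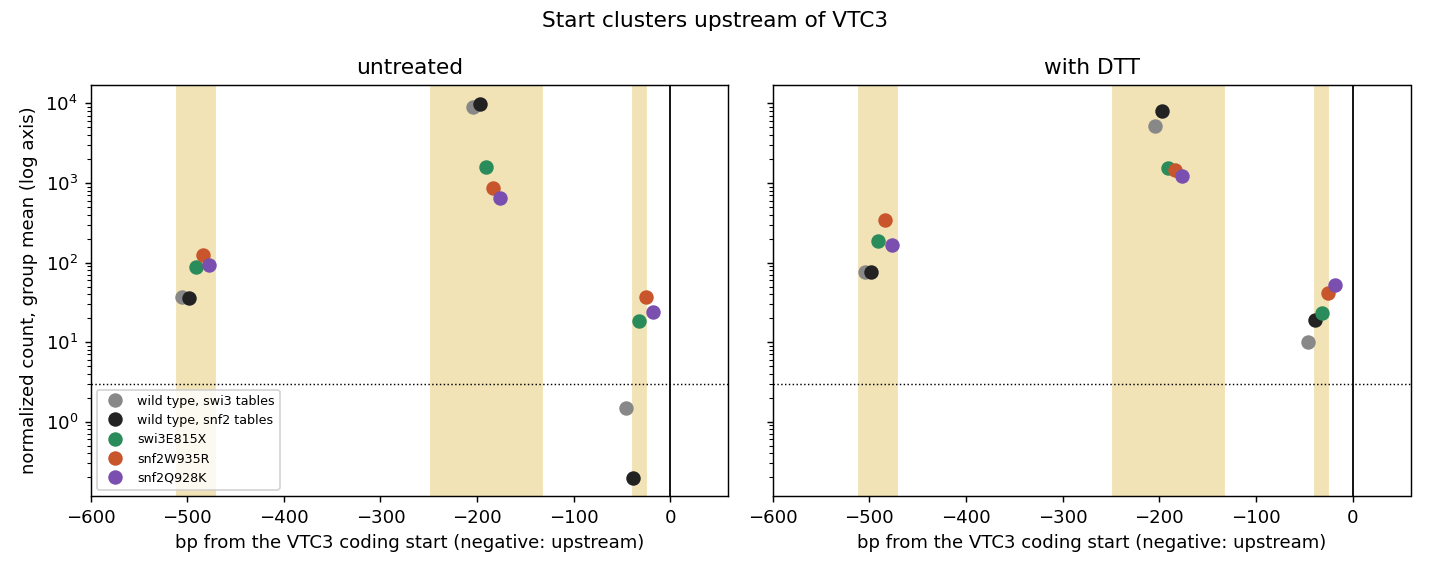
Derived mean normalized count (log axis) of the start clusters upstream of VTC3 against the distance from its coding start, untreated (left) and with DTT (right). Bands mark the extent of each cluster, points are groups of 2 libraries spread sideways within or beside a band to be visible, and the dotted line is the floor of 3 counts. At the main cluster the mutants lie below both wild-type sets, and at the clusters on either side they lie above them. Few of those increases were called: the upstream cluster in snf2W935R with DTT, and the second cluster in the untreated snf2 mutants.

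VTC4, the polymerase subunit, was lower in both snf2 mutants. Untreated, its derived level was 75.3 normalized counts in swi3E815X, 27.7 in snf2W935R and 40.1 in snf2Q928K, against 222 and 235. With DTT it was 29.4, 20.2 and 31.9, against 79.6 and 125. All mutant groups were below all wild-type groups of the same treatment. At these levels the errors were wider than for VTC3, with SEs from 0.36 to 0.68.

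Without DTT, VTC4 fell by 3.08 ± 0.62 on the log2 scale in snf2W935R (adjusted p = 0.000109, DESeq2) and by 2.55 ± 0.59 in snf2Q928K (0.000643) in the authors' deposited tables. With DTT the authors' deposited tables give -2.63 ± 0.68 (adjusted p = 0.0045) and -1.97 ± 0.54 (0.00397). In swi3E815X its log2 fold change was -1.56 ± 0.47 untreated (adjusted p = 0.0536) and -1.44 ± 0.59 with DTT (adjusted p = 0.379) in the authors' deposited tables, neither called. The untreated value passed after centring, at an adjusted p of 0.0495. The swi3E815X effect was not shown to differ from that of snf2W935R untreated (difference 1.52, interval -0.01 to 3.06, adjusted p = 0.829, Benjamini-Hochberg).

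The derived levels of VTC1 were above, and those of VTC2 below, both wild-type sets in every mutant, with 1 call among the 6 mutant tables. VTC1 had 1599 normalized counts in untreated swi3E815X, 1630.5 in snf2W935R and 1805 in snf2Q928K, against 949 and 1249 in the wild-type sets. With DTT the levels were 1789.8, 1718 and 1947, against 1174 and 1165. Each mutant group was above both wild-type groups of its treatment, in contrast to VTC3 and VTC4. The increase was called only in snf2Q928K with DTT, at 0.74 ± 0.25 in the authors' deposited table (adjusted p = 0.0267, DESeq2). In the mutant comparisons where it was not called, its log2 fold change lay between 0.38 and 0.75 in the authors' deposited tables.

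VTC2, the alternative to VTC3 in the complex, had 606, 636 and 590.0 normalized counts in untreated swi3E815X, snf2W935R and snf2Q928K, against 788 and 1126. With DTT it had 446, 483 and 496, against 576 and 856. All mutant levels were below both wild-type sets, but VTC2 was not called in any table. The lowest adjusted p in the authors' deposited tables was 0.0559, in untreated snf2Q928K, where the log2 fold change was -0.93 ± 0.32. In swi3E815X its log2 fold changes were -0.38 untreated and -0.37 with DTT in the authors' deposited tables, with 95% intervals of -1.01 to 0.25 and -0.95 to 0.21.

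PPN2 was lower in every mutant without DTT, by nearly the same amount. Its derived levels were 196 normalized counts in swi3E815X, 169.9 in snf2W935R and 182 in snf2Q928K, against 797 and 771. With DTT they were 448, 532 and 299, against 1152 and 992. The mutants stayed below wild type under both treatments, and all 5 genotypes had more PPN2 with DTT than without. The ratio was 1.45 and 1.29 in the wild-type sets and 2.28, 3.13 and 1.65 in swi3E815X, snf2W935R and snf2Q928K.

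For untreated PPN2 the authors' deposited tables give log2 fold changes of -2.02 ± 0.37 in swi3E815X (adjusted p = 1.37e-05), -2.18 ± 0.39 in snf2W935R (5.23e-06) and -2.08 ± 0.37 in snf2Q928K (1.24e-06, all DESeq2). With DTT PPN2 remained called in swi3E815X (-1.36 ± 0.29, adjusted p = 0.000446) and snf2Q928K (-1.73 ± 0.28, 5.89e-08) in the authors' deposited tables. In snf2W935R with DTT it was at -0.90 ± 0.39 in the authors' deposited table and not called (adjusted p = 0.194). The change of the snf2W935R effect on PPN2 with DTT, 1.28 (interval 0.19 to 2.37), did not pass (adjusted p = 0.362, Benjamini-Hochberg), so the loss of the call is not shown to be a difference.

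PPN1 differed from PPN2 in that no mutant was called without DTT. Its untreated levels were 661 normalized counts in swi3E815X, 432 in snf2W935R and 712 in snf2Q928K, against 624 and 627. With DTT they were 745, 529 and 558, against 983 and 1067. Untreated, the mutants lay on both sides of wild type, and with DTT all were below it. PPN1 was lower with DTT in snf2Q928K by -0.94 ± 0.28 (adjusted p = 0.00944, DESeq2) in the authors' deposited table. In snf2W935R the value was -1.01 ± 0.37 (adjusted p = 0.0822) and in swi3E815X -0.40 ± 0.32 (adjusted p = 0.998) in the authors' deposited tables. The DTT response of PPN1, 1.57 and 1.7 in the wild-type sets, was 0.783 in snf2Q928K, but the change of the effect (-1.12, interval -1.98 to -0.26) did not pass (adjusted p = 0.234, Benjamini-Hochberg).

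Counted over the 6 genes, 2 were lower and none higher in untreated swi3E815X, where 1.35% of all clusters were called lower and 0.463% higher. With DTT 2 were lower and none higher, beside 1.17% and 0.212%. In snf2W935R 3 were lower untreated and 2 with DTT, beside 1.79% and 2.83%, and none was higher, beside 0.945% and 2.54%. In snf2Q928K 3 were lower and none higher untreated, beside 3.74% and 2.82%. With DTT 4 were lower and 1 higher, beside 7.18% and 7.34%. The median log2 fold change of the 6 was -0.97 and -0.88 in swi3E815X, -1.50 and -0.96 in snf2W935R and -1.51 and -1.33 in snf2Q928K, untreated and with DTT. The median over all clusters tested lay between -0.04 and 0.02 in those tables.

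**Figure D3:**
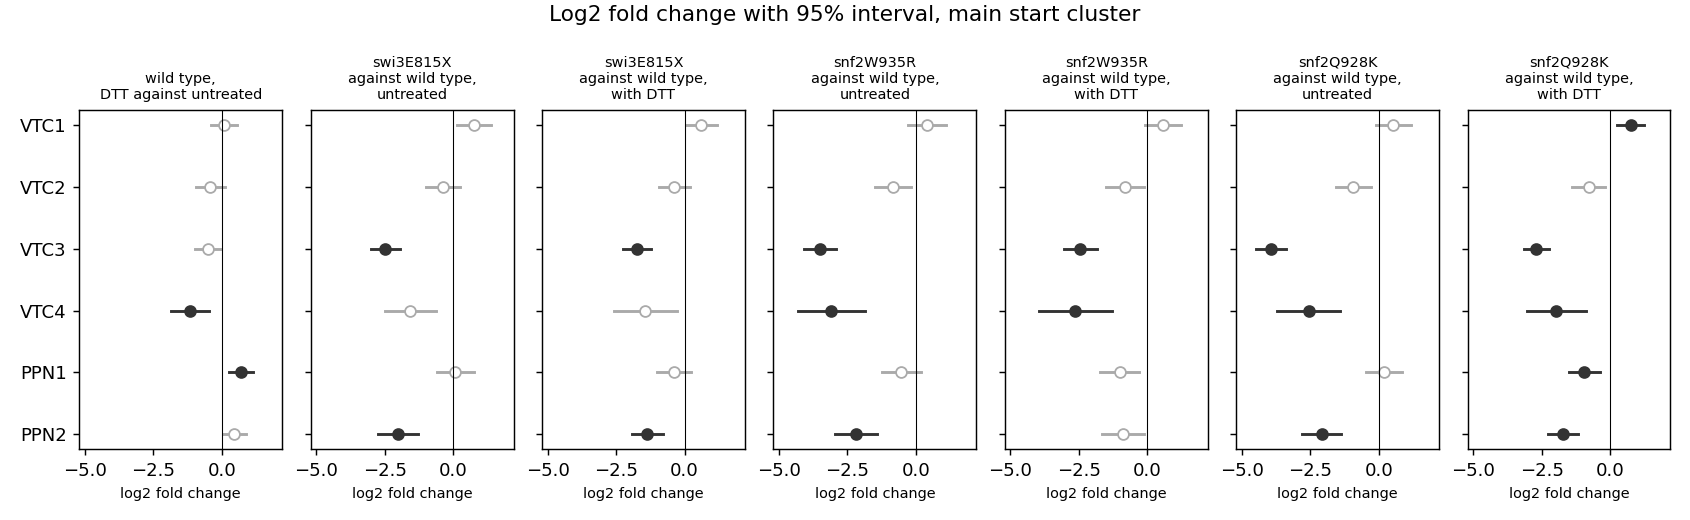
Log2 fold changes of the main clusters with 95% intervals from the authors' SEs, a panel for each of the 7 tables. Filled dark points were called at an adjusted p under 0.05 and open grey points were not. VTC3 is called lower in all 6 mutant tables, from -3.93 to -1.75, and VTC2 in none.

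No difference between snf2Q928K and snf2W935R passed for any of the 6 main clusters under either treatment, where 0.174% of all clusters passed untreated and 0.289% with DTT. These alleles change residues a few positions apart in the Snf2 ATPase, as their names state. The largest difference was PPN2 with DTT, lower in snf2Q928K by a log2 difference of -0.83 (interval -1.78 to 0.12). For VTC4 the intervals reached from -1.15 to 2.21 untreated and from -1.05 to 2.37 with DTT, so differences of several fold are not resolved. Against swi3E815X, only the untreated VTC3 difference from snf2Q928K passed among the 6 genes, in 4 comparisons. There the share of all clusters passing was 0.251% and 0.558% against snf2W935R, untreated and with DTT, and 1.42% against snf2Q928K with DTT.

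Other genes of the pathway were counted from lists. Of 15 genes listed as Pho4-activated, 9 had a cluster. They include CTF19, a kinetochore gene that lies head to head with VTC3 and was called in no table, and the medians below count it. In untreated swi3E815X 5 of the 9 were lower, and in snf2W935R and snf2Q928K 6 each, beside 1.35%, 1.79% and 3.74% of all clusters. None was higher, beside 0.463%, 0.945% and 2.82%. With DTT 2, 5 and 5 were lower, beside 1.17%, 2.83% and 7.18% of all clusters. The median log2 fold changes were -1.56, -2.18 and -2.17 untreated and -0.86, -1.75 and -1.82 with DTT. In the authors' deposited tables PHM6, a protein of unknown function induced by low phosphate, was at -3.72 ± 0.63, -5.30 ± 0.71 and -6.15 ± 0.80 untreated in swi3E815X, snf2W935R and snf2Q928K. Its levels there, 12.2, 6.31 and 4.02 normalized counts, were near the floor of 3. With DTT PHM6 was called lower in both snf2 mutants. In swi3E815X with DTT it was not called (-2.21 ± 1.03, adjusted p = 0.577, DESeq2, in the authors' deposited table). PHO84, the high-affinity phosphate transporter, was at -2.85 ± 0.33, -3.69 ± 0.42 and -3.74 ± 0.34 with DTT in the authors' deposited tables. Untreated, PHO84 was at -1.56 ± 0.30, -2.18 ± 0.32 and -2.17 ± 0.32 in the same order. In wild-type cells DTT lowered 6 of the 9 and raised HOR2, a glycerol phosphatase, beside 17.3% of all clusters lower and 16.5% higher.

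Of 8 genes for other steps of polyphosphate and inositol phosphate metabolism, 4 had a cluster (PPX1, the cytosolic exopolyphosphatase, DDP1, VIP1 and ARG82), and none was called in any table by DESeq2. Over all clusters, 1.17% to 7.18% were called lower in the mutant tables and 0.212% to 7.34% higher. In wild type with DTT the shares were 17.3% and 16.5%. Beside such shares, the absence of a call among 4 genes says little. Of the 4, at an unadjusted p under 0.05, 1 passed in snf2Q928K with DTT and 0 in each other table. Their errors leave changes of several fold unresolved: ARG82, an inositol phosphate kinase, was at -2.02 ± 1.29 and -1.97 ± 1.13 with DTT in snf2W935R and snf2Q928K in the authors' deposited tables. Among 4 measured regulators of the pathway (PHO2, PHO4, PHO23 and PHO80) none was called in a mutant, with 1 at an unadjusted p under 0.05 in untreated snf2Q928K and 0 in the other mutant tables. Beside the mutant shares above, the absence of a call among these 4 also says little. PHO4 itself was lower with DTT in wild type (-0.63 ± 0.24, adjusted p = 0.0268, DESeq2, in the authors' deposited table), as were 17.3% of all clusters.

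Of 4 measured low-affinity transporters and SPX proteins, PHO87 was higher in untreated snf2W935R and snf2Q928K and in wild type with DTT. Its wild-type untreated level was under the floor, and its level in those groups was 24.0, 26.03 and 9.15 times the floor. These multiples leave out the error of the level and are not lower limits. In the authors' deposited tables its log2 fold changes were 7.18 ± 1.70, 7.09 ± 1.71 and 3.78 ± 0.99 (adjusted p = 0.0022, 0.00138 and 0.000838, DESeq2). Over all clusters 0.945%, 2.82% and 16.5% were called higher in those comparisons. All 15 genes of the vacuolar proton pump, whose gradient polyphosphate synthesis depends on, had a cluster. STV1, a subunit of the pump outside the vacuole, was higher with DTT in wild type (0.72 ± 0.28, adjusted p = 0.0361, DESeq2, in the authors' deposited table), as were 16.5% of all clusters. None of the 15 was called in a mutant, where between 0 and 2 passed at an unadjusted p under 0.05. The shares of all clusters called there were 1.17% to 7.18% lower and 0.212% to 7.34% higher.

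**Figure D4:**
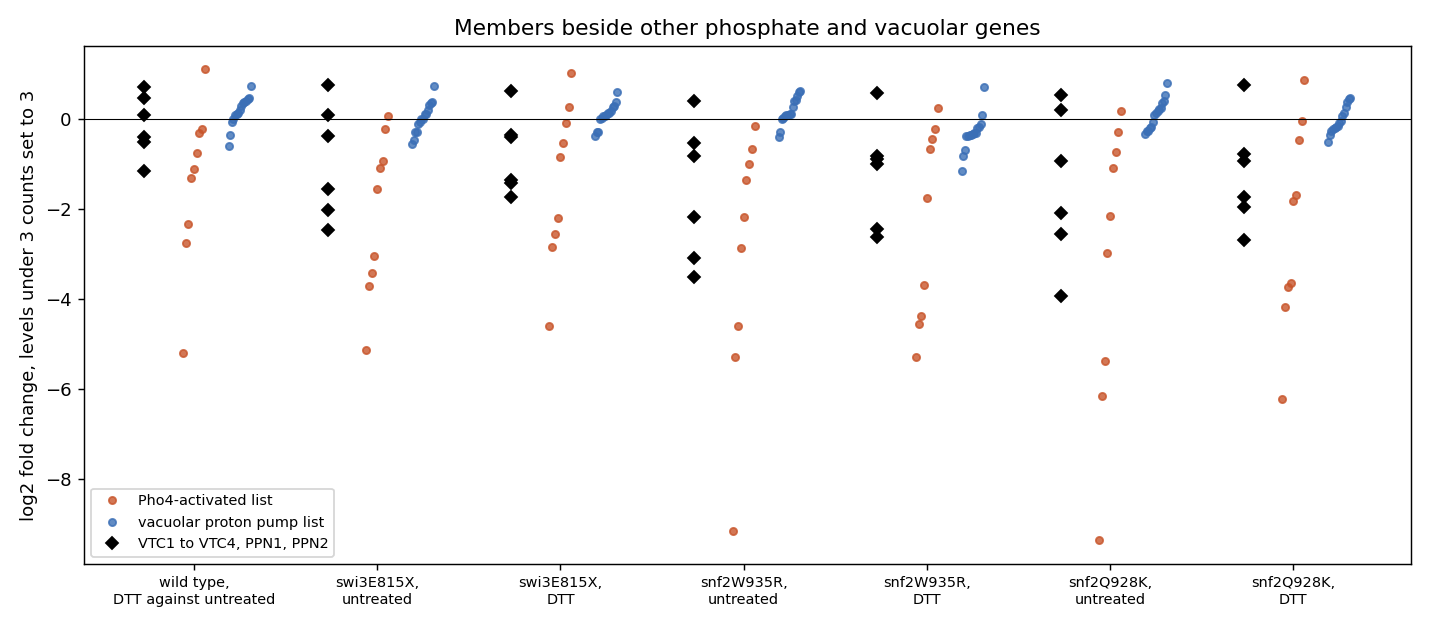
Log2 fold changes in each table of the main clusters of the 6 genes (diamonds), the 9 measured Pho4-activated genes (orange) and the 15 vacuolar proton pump genes (blue), with list levels under 3 normalized counts set to 3. In the mutants VTC2, VTC3, VTC4 and PPN2 lie below 0 and VTC1 above it. The Pho4-activated genes spread widely, from -4.60 to 1.02 in swi3E815X with DTT. The upper end there is CTF19, not called, and the next highest is PHO8 at 0.26, also not called. Whether the members follow the listed genes was not tested. The pump genes had medians from -0.35 to 0.20. Single values ran from -1.17 (VPH1 in snf2W935R with DTT) to 0.80 (VMA10 in untreated snf2Q928K), neither called.

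The members were not alike across the 10 groups. Over the log2 levels of the 10 groups, VTC3 had a Pearson correlation of 0.88 with VTC4, 0.87 with PPN2 and 0.73 with VTC2, and of -0.90 with VTC1. VTC1 was negatively correlated with each of the other 5 main clusters, from -0.90 to -0.43 with PPN1. PPN1 had correlations from 0.16 with VTC2 to 0.60 with PPN2. These are descriptions over 10 group means that share size factors. The snf2 mutants have their own libraries, but their levels were scaled through the same wild-type libraries. The clusters most like the average of VTC1 to VTC4, among 3951 with at least 50 mean normalized counts, were those of SPL2 (0.97), an inhibitor of low-affinity phosphate uptake, PHM6 (0.97), YGP1 (0.95), YHR033W (0.94) and the unassigned cluster 1226 (0.92). Only 2 of these 5 were kept with rank correlations. Because VTC1 ran against VTC2, VTC3 and VTC4, likeness to their average need not hold for VTC1. PPN1 was most like AYR1 (0.94), AIM46 (0.91) and FUN14 (0.91). PPN2 was most like the unassigned clusters 8034 (0.97) and 7383 (0.94) and VAC14 (0.94), of which 1 of 3 was kept with rank correlations. For PPN1 2 of 3 were kept.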

How the data were processed

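TL-seq data of 20 libraries in 10 groups were used as 7 comparison tables. Per the submitters' processing notes, the tools were cutadapt, HISAT2 and DESeq2 and the build sacCer3/R64. The sources used here do not state versions or settings. Every row of a table stands for 1 consensus cluster, per the file headers. Its mean normalized count is a signal the authors averaged over the libraries compared. The authors computed and deposited the log2 fold change and its SE, fitted from read counts that were not used here. They also deposited the Wald statistic, a score, and the p-value with its adjusted p-value, all deposited by the authors. The authors assigned clusters to genes. Depth per library is unknown, so no counting intervals are given.

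Group levels were computed from each table's mean and fold change and put on the scale of the wild-type table, with a robust SD of the fit of 0.00206 (untreated) and 0.00165 (DTT) log2 units. That wild-type table equals the mean of both wild-type sets. Differences of fold changes used a normal distribution with the root of summed squared SEs and Benjamini-Hochberg adjustment over all clusters. A run on simulated data drew normal noise with those same SEs, so it cannot show whether the SEs hold. A gene with several clusters is represented by the one with the highest mean. The floor was 3 normalized counts per library. Named genes are all members, up to 4 called genes per list and table with the largest change, and the clusters most alike in pattern; the lists' other named genes, and those that show what a list holds, were named after their values were seen. Head-to-head neighbours with coding starts within 1000 bp were looked up. The members and lists were chosen with earlier results of these data known. Windows of 250 bases came from RefSeq R64. Python 3.11.15, pandas 2.3.3, numpy 2.4.6, scipy 1.17.1 and matplotlib 3.10.9 were used.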

Additional observations from a re-analysis of the deposited data

Results flagged for a closer look

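The effect of snf2Q928K on VTC3 differed between treatments by a log2 difference of 1.24, the single member and mutant for which the difference between treatments passed (adjusted p = 0.0453, Benjamini-Hochberg). The derived level was 651 normalized counts untreated and 1238 with DTT in snf2Q928K, and 9922 and 7987 in its wild-type set.

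The effect on untreated VTC3 differed between swi3E815X and snf2Q928K by 1.45 on the log2 scale (adjusted p = 0.0261, Benjamini-Hochberg).

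Start clusters beside the members, which the comparisons above do not use, also changed. On the strand of VTC3, the unassigned cluster 8538 (chromosome XVI, 517489 to 517529) lies upstream of the main cluster and overlaps the 5′ end of the promoter window shown. It was higher with DTT in wild type by 1.08 ± 0.44 (adjusted p = 0.0427, DESeq2) and in snf2W935R against wild type with DTT by 2.17 ± 0.50 (adjusted p = 0.00106) in the authors' deposited tables.

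TDA2 starts head to head with VTC1, 479 bp between the coding starts. In the authors' deposited tables it was higher with DTT in wild type by 1.69 ± 0.47 (adjusted p = 0.0018, DESeq2), and in untreated snf2W935R by 2.47 ± 0.75 (0.0396) and snf2Q928K by 2.75 ± 0.70 (0.00315). VTC1 was called in none of those 3 tables. Untreated TDA2 levels differed between the wild-type sets, 19.1 normalized counts in the libraries of the snf2 tables and 49.1 in those of the swi3E815X tables. In untreated snf2W935R and snf2Q928K they were 106 and 128.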

How the results depend on the processing

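No paired analysis was possible because the tables hold no values per library, and for the same reason no replicate could be left out. At an adjusted p under 0.01 or at least 2-fold, the 1 higher gene in snf2Q928K with DTT became 0, and at least 2-fold also took the 1 higher gene of wild type to 0 and the 4 lower genes of snf2Q928K with DTT to 3, without PPN1. Bonferroni adjustment left 0 higher and 0 lower genes in wild type, 1 lower in snf2W935R with DTT, and 0 higher and 2 lower in snf2Q928K with DTT. In untreated snf2Q928K it left 2 of the 3 lower genes, without VTC4. Counting any cluster of a gene gave 2 higher genes in wild type and 1 higher in each untreated snf2 mutant, the added gene each time being VTC3 through its second cluster. Of the 2 differences that passed for VTC3, Bonferroni left 0 of each, and centring left 0 in snf2Q928K between treatments. VTC2 reversed after centring in the snf2W935R difference between treatments, at -0.034, near 0 in both. Requiring 10 mean normalized counts changed no call of a main cluster, and taking the shared wild-type arm out of the SE changed none between the snf2 mutants. The calls of the main VTC3 cluster and of PPN2 in the mutant tables held under every threshold and scaling tried. The second VTC3 cluster was not put through those thresholds and scalings. Its adjusted p in untreated snf2W935R (0.0101) and snf2Q928K (0.031, both DESeq2) lies above 0.01. In the wild-type comparison its mean, 7.63 normalized counts, is under 10. What depth limits is unknown, since the tables give none per library.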

Other observations

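Start clusters around the members gave further values. Upstream of VTC3, the cluster at 517489 to 517529 on the same strand had derived levels of 37.3 and 35.4 normalized counts in the untreated wild-type sets of the swi3E815X and snf2 tables. It had 87.9 in swi3E815X, 124.6 in snf2W935R and 94.4 in snf2Q928K. With DTT the levels were 77.0 and 76.3 in wild type and 187, 342 and 168 in the mutants. All mutant groups were above both wild-type sets, in the direction opposite to the main VTC3 cluster, but of the mutant comparisons only snf2W935R with DTT was called. CTF19, a kinetochore gene whose coding start lies 633 bp from that of VTC3 on the other strand, was called in no table and had between 22.9 and 46.6 normalized counts over the 10 groups.

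Inside VTC1, the unassigned antisense cluster at 302965 to 303077 on chromosome V was lower in untreated swi3E815X, at -1.95 ± 0.52 (adjusted p = 0.0164, DESeq2), and in snf2W935R with DTT, at -2.50 ± 0.73 (adjusted p = 0.0165), in the authors' deposited tables. Its untreated levels differed between the wild-type sets, 363 normalized counts in the libraries of the swi3E815X tables and 122 in those of the snf2 tables. YHP1, a homeobox repressor gene head to head with PPN1, was lower with DTT in wild type by -1.23 ± 0.48 (adjusted p = 0.0341, DESeq2) in the authors' deposited table, while PPN1 was higher there. No tested difference between mutants or treatments passed for these neighbours.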
